A study of Mus musculus with 25 samples.

Results

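Potassium channels let potassium ions leave a cell and so pull its membrane towards rest, and the related HCN channels pass the inward pacemaker current that opens on hyperpolarization. Which subunits a neuron makes sets its resting potential, the width of its spikes and how it answers transmitters, and in arcuate neurons ATP-sensitive potassium (KATP) channels are known for coupling glucose to firing. The genes described here are all rows of the deposited table whose symbol starts with Kcn, together with the 4 Hcn genes and the KATP regulatory subunits Abcc8 and Abcc9, with the antisense transcript Kcnq1ot1 left out. The rule is by name alone and found 102 of 30903 symbols, of which 99 are protein-coding and 3 are antisense RNAs.

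The cells were 25 single neurons picked by hand for green fluorescence after dissociating arcuate nucleus with median eminence. The tissue was pooled from 2 male adults of the strain (C57BL/6 x DBA)F2, aged 63 days on average. All carried RIP-Cre, in which a rat insulin promoter drives Cre, and GFP from an AAV that is expressed after Cre removes a stop. There is 1 group and 1 pooled sample, so cells are not replicates, no test between groups exists and no p-value is given. Detection in a cell means at least 10 RPKM, where RPKM is the read number divided by gene length in kilobases and by library size. Each cell keeps the number of its label. Intervals given with shares of cells are exact Clopper-Pearson 95% ones, which cover counting error only. For a gene found in 0 of 25 cells their upper bound is 13.7%, and the separate limit of 3 counts over 25 cells is 12%. Per cell, 7 to 10 of 10 neuronal markers were detected, while all 5 oligodendrocyte markers, all 3 markers of oligodendrocyte precursors and all 3 pituitary markers were listed at 0 in every cell. No microglial marker was detected (sum at most 1.04 RPKM), and at most 1 marker each of astrocytes, tanycytes, endothelial, mural and ependymal cells was detected per cell, with highest sums of 39.8, 102, 26.7, 30.5 and 27.7 RPKM. The estimated depth, read off the spacing of low values, was 891400 to 2986300 reads per cell.

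The feature that joins the pore-forming members is the selectivity filter, a short stretch where glycine, a tyrosine or phenylalanine, and glycine follow a small hydrophobic residue. This filter was searched in frame, on the coding strand, in the longest coding sequence of each gene (GENCODE M21, GRCm38), as the codons NTN, GGN, TAC or TAT, and GGN for the tyrosine form and with TTC or TTT in place of TAC or TAT for the phenylalanine form, where N is any base. Of 99 coding members, 78 held a match (78.8%), against 3.94% of 19397 other coding genes of the table. The 21 without one were 17 auxiliary or regulatory members (Kcnab, Kcnip, Kcnmb, Kcne and Kcnrg genes), the ATP-binding proteins Abcc8 and Abcc9, and the tandem-pore genes Kcnk1 and Kcnk7. All 8 Kcnh genes had the phenylalanine form, as did Kcnj8 and Kcnj11 among the inward rectifiers, whereas all 4 HCN and all 4 GIRK genes had the tyrosine form. More than 1 match occurred in 11 members, all of them tandem-pore genes, whose name refers to the pair of pore loops in each subunit. The sequences below show this filter in 1 pore subunit of each of 7 families, chosen as genes on which the values below turn; each runs 5′ to 3′ on the coding strand, the capitals mark the match, and the Kcnk2 pair shows both loops.
Kcnc4 (tyrosine form): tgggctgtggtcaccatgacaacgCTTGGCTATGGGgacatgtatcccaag
Kcna5 (tyrosine form): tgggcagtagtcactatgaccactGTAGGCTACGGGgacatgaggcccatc
Kcnd2 (tyrosine form): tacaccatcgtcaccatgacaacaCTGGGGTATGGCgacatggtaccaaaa
Kcnj9 (tyrosine form): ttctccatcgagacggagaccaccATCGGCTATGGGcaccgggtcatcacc
Hcn3 (tyrosine form): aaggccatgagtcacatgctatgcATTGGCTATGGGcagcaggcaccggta
Kcnh2 (phenylalanine form): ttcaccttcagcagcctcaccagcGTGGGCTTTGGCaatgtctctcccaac
Kcnk2, loop nearer the start: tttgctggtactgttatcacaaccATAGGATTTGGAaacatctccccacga
Kcnk2, loop nearer the end: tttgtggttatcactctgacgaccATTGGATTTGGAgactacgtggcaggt

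On GRCm38, the Kcna5 stretch lies in the single exon of that gene at chr6:126533730-126533780 on the minus strand. The Kcnc4 stretch is in exon 2 of 4 at chr3:107447784-107447834, Kcnj9 in exon 3 of 4 at chr1:172326169-172326219, Kcnh2 in exon 7 of 15 at chr5:24325540-24325590 and Hcn3 in exon 4 of 8 at chr3:89150991-89151041, all on the minus strand. In Kcnd2 (plus strand) the intron between exons 1 and 2 interrupts the stretch. Both Kcnk2 stretches (minus strand) are interrupted as well, between exons 3 and 4 and between exons 5 and 6. A match is a description of these letters and not a measurement of a channel.

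Of the 102 members, 61 (59.8%) were detected in at least 1 cell, 14 stayed below 10 RPKM wherever they were listed above 0, and 27 were listed at 0 in all cells. For all symbols the share detected in at least 1 cell was 42.7%. Among protein-coding symbols it was 59.1%, close to the 60.6% of coding members. Wide detection was less frequent: 8 members (7.84%) reached the level in at least 13 cells, where 13.5% of all symbols and 20.5% of protein-coding symbols did. The shortfall against all symbols depended on the level, since at 1 RPKM the share of members in at least 13 cells was 0.451 percentage points above theirs. Protein-coding symbols alone were not compared at 1 RPKM. With 10 estimated reads as the level it was 0.445 points above over all symbols, and the difference was -6.07 points over symbols with a known length. The 8 members detected in at least 13 cells included Kcnc4, Kcnc2, Kcnip1, Kcna5, Kcnj9, Kcnd2 and Kcnip3. A further 11 were found in 8 to 12 cells, 28 in 2 to 7 cells and 14 in 1 cell.

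**Figure D1:**
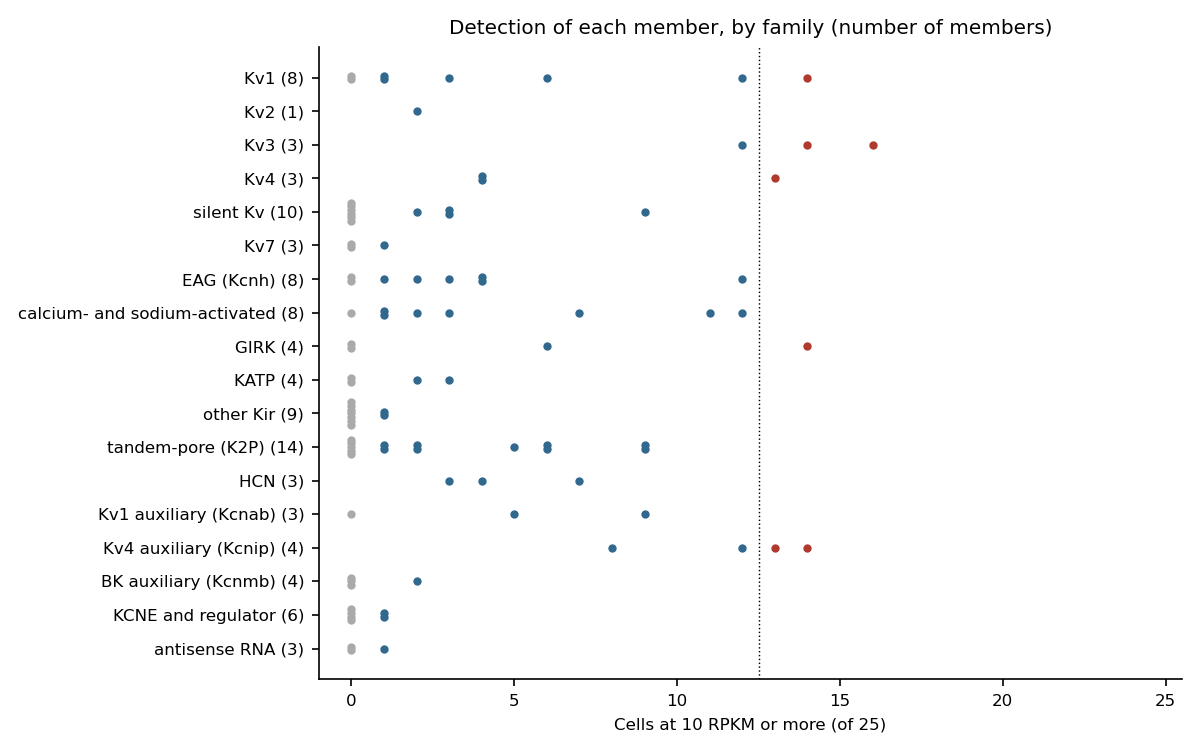
Each dot is 1 of 98 members, placed by the number of cells (of 25) in which it reached 10 RPKM, in rows by family with the number drawn in brackets; grey dots are members in 0 cells, blue dots in 1 to 12 and red dots in 13 or more, with the dotted line between 12 and 13. Kcnc4 stands furthest right of the dots drawn, at 16 cells, and families such as the 9 other Kir genes lie at 0 or 1.

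Levels were low to moderate and uneven between cells. The shares below were not counted over all genes, so they are not read as particular to the members. Among genes of like mean level, the spread of the median member lay at percentile 58.8. Of the 2550 values (102 members in 25 cells), 1905 (74.7%) were 0, 95 were above 0 and below 1 RPKM, 198 lay from 1 to below 10 RPKM and 352 were at 10 RPKM or more. Only 16 values reached 100 RPKM. The highest was 180.1 RPKM, of Kcnip1 in cell 1.

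**Figure D2:**
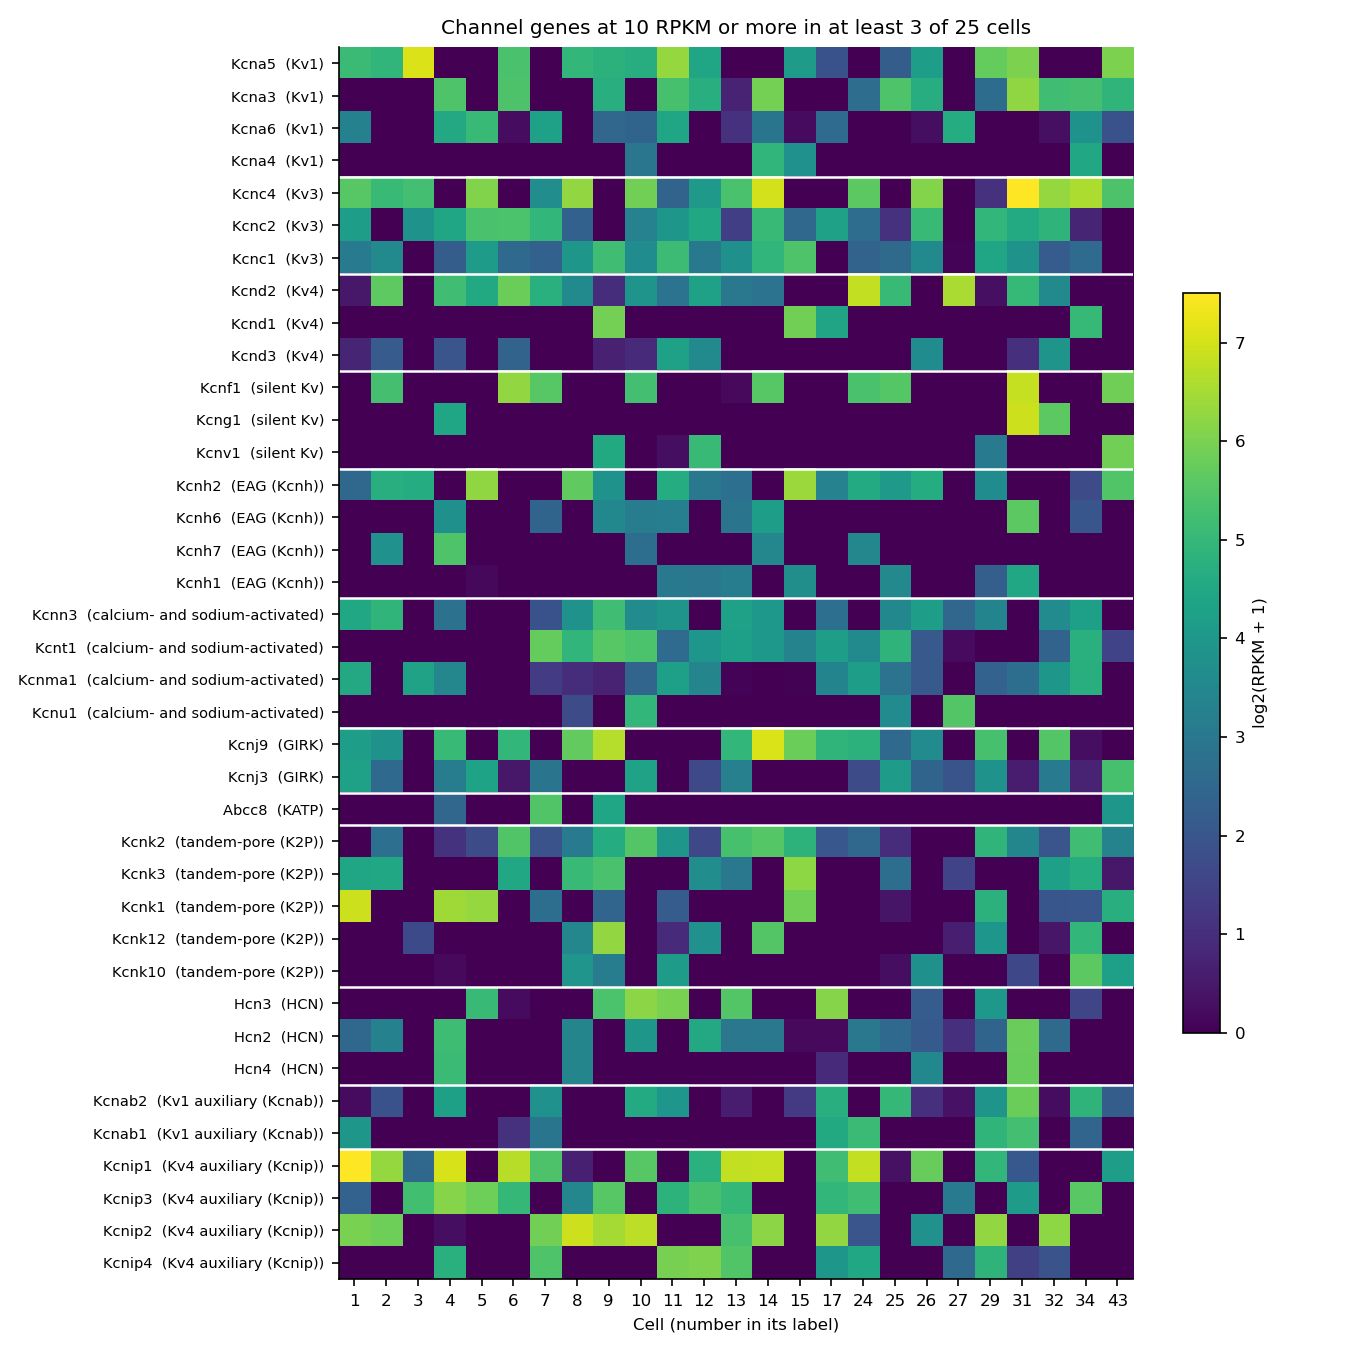
Colour gives log2(RPKM + 1) of 38 members that reached 10 RPKM in at least 3 cells (rows, by family) in each of the 25 cells (columns, by label number). Most rows mix dark (0) and bright cells, and the column of cell 27 is mostly dark.

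Kv7 channels carry the M-current, a slow brake on repeated firing that muscarinic and peptide receptors can shut. Kcnq3 was detected in cell 7 alone, at 12.6 RPKM. It was listed at 7.53 RPKM in cell 11, at 0.19 RPKM in cell 27 and at 0 in the other 22 cells. Kcnq5 reached at most 8.28 RPKM (cell 2), and Kcnq1 was listed at 0 in every cell. At the median depth, 10 RPKM corresponds to about 265 reads of Kcnq3.

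Kv3 channels open on strong depolarization and close fast, which allows brief spikes. At least 1 Kv3 gene was detected in 23 cells, all but cells 25 and 27, and 16 cells had at least 2. Kcnc4 was found in 16 cells (64%, interval 42.5 to 82.0%), with a median over all cells of 37.3 RPKM and a maximum of 177 RPKM in cell 31. It was listed at 0 in 7 cells and below the level in 2 more, and its 16 detected values began at 11.7 RPKM (cell 7). Kcnc2 was detected in 14 cells, with a median level of 14.8 RPKM and a maximum of 40.4 RPKM in cell 6. Kcnc1 was listed above 0 in 22 cells but reached the level in 12, with a median level of 7.54 RPKM and a maximum of 42.7 RPKM in cell 15.

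The Kv1 genes encode low-threshold channels that limit spike initiation. The most widely detected was Kcna5, better known from heart and smooth muscle, which was found in 14 cells (56%, interval 34.9 to 75.6%). Its values ran from 0 to 136 RPKM (cell 3), the median was 17.5 RPKM, and it was listed at 0 in 9 cells. Kcna3 was detected in 12 cells, at 24.4 RPKM or more in each of them and up to 75.1 RPKM in cell 31. Kcna6 followed in 6 cells (highest 32.3 RPKM in cell 5) and Kcna4 in 3. Kcna1 and Kcna2, the axonal subunits, were detected in 1 cell each, at 14.7 RPKM in cell 7 and at 13.0 RPKM in cell 25. Kcna7 was below the level and Kcna10 listed at 0 throughout. Kcna5, Kcna1 and Kcna6 are neighbours on chromosome 6. Cell 7, the only one with Kcna1, also had Kcna6 and did not have Kcna5. The Kcnab genes encode cytoplasmic subunits of Kv1 channels: Kcnab2 was found in 9 cells (highest 55.7 RPKM, cell 31), Kcnab1 in 5 (highest 37.7 RPKM, cell 31) and Kcnab3 in none.

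Kv4 channels carry the A-type current that delays firing, and KChIP proteins, encoded by the Kcnip genes, bind them and bring them to the membrane. Kcnd2 was detected in 13 cells (52%, interval 31.3 to 72.2%), with a median level of 10.7 RPKM and values up to 110.3 RPKM (cell 24) and 93.4 RPKM (cell 27). Kcnd1 and Kcnd3 were found in 4 cells each, Kcnd1 at 19.8 to 60.1 RPKM and Kcnd3 at 11.1 to 18.8 RPKM. A single Kv4 gene was detected in 17 cells and 2 of them in 2 cells. All 4 Kcnip genes were frequent. Kcnip1 was found in 14 cells (median 26.9 RPKM), Kcnip3 in 13 (median 10.1 RPKM), Kcnip2 in 12 (median 2.90 RPKM), and Kcnip4 in 8 (median 0 RPKM). At least 1 Kcnip gene was present in 22 cells, all but 15, 25 and 27, and 2 cells had all 4. Kv4 and Kcnip genes were detected together in 16 cells, Kv4 alone in 3 and Kcnip alone in 6, and no cell lacked both. With Kv4 genes in 19 cells and Kcnip genes in 22, most cells had to hold both. No relation between the 2 sets is therefore read from these counts. Kcnd2 shared 7 cells with Kcnip1, which is 53.8% of the Kcnd2 cells and 50% of the Kcnip1 cells. These shares lie near those over all 25 cells, 56% for Kcnip1 and 52% for Kcnd2. With Kcnip3, Kcnd2 shared 7 cells (53.8% of the Kcnd2 cells, beside 52% of all cells). It shared 5 with Kcnip2 (38.5%, beside 48%) and 4 with Kcnip4 (30.8%, beside 32%). The antisense RNA Kcnd3os was detected in cell 24, where Kcnd3 was listed at 0. The counting is not stated to use strand and the library kit marks none, so reads of overlapping antisense pairs cannot be told apart.

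Silent Kv subunits form no channel alone and modify Kv2 channels. Kcnf1 was the leading one, in 9 cells (36%, interval 18.0 to 57.5%). It was close to an on-off gene: its detected values were 37.4 to 113 RPKM, a 10th cell had 0.13 RPKM and the other 15 were listed at 0. Kcng1 was detected in 3 cells, at 121 RPKM in cell 31, 47.9 RPKM (cell 32) and 20.8 RPKM (cell 4), and stood at 0 in the other 22. Kcnv1 was found in 3 cells and Kcng2 in 2. The Kv2 gene at hand, Kcnb2, reached 24.2 RPKM (cell 7) and 34.2 RPKM (cell 14), and both cells also had Kcnf1. Of the 14 cells with a silent subunit, 12 therefore had no Kcnb2 at the level.

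The Kcnh genes encode the EAG family, whose erg channels (Kcnh2, Kcnh6 and Kcnh7) open during repolarization and slow firing. Kcnh2 was present in 12 cells (48%, interval 27.8 to 68.7%) and its median over all cells was 9.03 RPKM, a maximum of 82.1 RPKM in cell 15 and 8 cells listed at 0. Kcnh6 and Kcnh7 were found in 4 cells each, with maxima of 48.3 RPKM (cell 31) and 42.5 RPKM (cell 4). Kcnh1 was detected in 3 cells, Kcnh8 in 2 and Kcnh4 in 1, while Kcnh5 came to 9.74 RPKM at most and Kcnh3 was listed at 0.

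Channels gated by internal calcium or sodium carry afterhyperpolarizations. Kcnn3 (SK3) was detected in 12 cells, with a median level of 9.36 RPKM and a maximum of 36.1 RPKM in cell 9. Its relatives Kcnn1 and Kcnn2 were found in 1 cell each and Kcnn4 was listed at 0 in every cell. Calmodulin is the calcium sensor of SK channels, and its genes Calm2 and Calm3 were detected in all 25 cells, with lowest values of 265 and 96.8 RPKM. The sodium-activated Kcnt1 was detected in 11 cells, from 11.0 to 52.3 RPKM (cell 7), and Kcnt2 in 2. Kcnma1, the large-conductance BK channel, was listed above 0 in 19 cells but reached the level in 7, at most 25.7 RPKM in cell 34. Among the BK beta subunits, Kcnmb3 was detected in cells 15 and 34. Kcnmb4, usually the neuronal one, was listed above 0 in 7 cells with at most 5.37 RPKM, and Kcnmb1 and Kcnmb2 were listed at 0. Kcnu1, known from sperm, is grouped here as a relative of Kcnma1 and not for its gating. It was detected in 3 cells, at 43.6 RPKM in cell 27, 30.0 RPKM (cell 10) and 11.2 RPKM (cell 25).

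GIRK channels are opened by G-protein beta-gamma subunits and carry inhibition by opioid, somatostatin and GABA-B receptors. Kcnj9 (GIRK3) was the leading member, in 14 cells (56%, interval 34.9 to 75.6%), with a median level of 13.5 RPKM and values up to 135 RPKM in cell 14. Kcnj3 (GIRK1) was listed above 0 in 18 cells and reached the level in 6, with a maximum of 38.9 RPKM in cell 43. Only cells 1 and 29 had both. That is 33.3% of the Kcnj3 cells, beside 56% of all cells with Kcnj9, and 14.3% of the Kcnj9 cells, beside 24% with Kcnj3. With so few cells nothing is read from this difference. At 1 RPKM, Kcnj3 was in 15 cells and Kcnj9 in 15, and more cells had both, such as cell 26 (4.29 and 11.3 RPKM). The number of cells with both thus depends on the level. Kcnj6 (GIRK2), which can form channels alone, was detected in no cell. It was listed above 0 in 9 cells, with 7.48 RPKM (about 154 reads) in cell 29 as the highest value, so its reads were present at a low level. Kcnj5 (GIRK4) came to 5.83 RPKM in cell 26 and at most 0.50 RPKM elsewhere. The beta subunit genes Gnb1 and Gnb2 were detected in all 25 cells, with medians of 201 and 76.0 RPKM.

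KATP channels combine a pore (Kcnj11 or Kcnj8) with a sulfonylurea receptor (Abcc8 or Abcc9). Kcnj11 was detected in cell 27 at 43.6 RPKM and in cell 24 at 11.1 RPKM, was 0.48 RPKM in cell 25 and stood at 0 in the other 22. Abcc8 was detected in cell 7 at 43.6 RPKM, cell 9 at 20.5 RPKM and cell 43 at 14.7 RPKM, stood at 4.58 RPKM in cell 4 and stood at 0 in the other 21. No cell was listed above 0 for both genes, from which nothing is read with so few cells. The genes are neighbours on chromosome 7 (Kcnj11 at 46093953 to 46100764 and Abcc8 at 46104523 to 46180033, GRCm38, both minus strand). Cell 27, the cell highest in Kcnj11, was also the only 1 with the insulin gene Ins2, at 58.3 RPKM, a coincidence of single cells noticed after the values were seen. The other pore gene, Kcnj8, was listed at 0 in all cells, and Abcc9 reached 0.18 RPKM (about 1.91 reads). Kcnj8 and Abcc9 are known from mural cells of vessels, and of the 5 mural markers Pdgfrb was listed at 0, with at most 1 marker detected in any cell and a sum of 0 to 30.5 RPKM.

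The remaining inward rectifiers were nearly absent. Of 9 genes, Kcnj4 was detected in cell 32 at 32.5 RPKM and Kcnj12 in cell 31 at 11.3 RPKM. Kcnj13 and Kcnj16 stayed below 10 RPKM, and Kcnj1, Kcnj2, Kcnj10, Kcnj14 and Kcnj15 were listed at 0 in all 25 cells. Kcnj10 is the main inward rectifier of astrocytes and other glia, and it lies next to Kcnj9 on chromosome 1, which was detected in 14 cells. Of the 7 astrocyte markers, Gfap and Agt were listed at 0 in every cell, and the sum of all 7 ran from 0 to 39.8 RPKM.

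The tandem-pore genes encode leak channels that set the resting potential and are shut or opened by acid, lipids, volatile anaesthetics and receptors. At least 1 was detected in 20 cells and at least 2 in 13, but none in as many as 13 cells. Kcnk2 (TREK-1) was listed above 0 in 21 cells and detected in 9, with a maximum of 44.9 RPKM in cell 14. Kcnk3 (TASK-1) was also detected in 9 cells, from 11.8 to 74.2 RPKM (cell 15). Its close relative Kcnk9 (TASK-3) was found in 2 cells, at 60.1 RPKM (cell 3) and 23.2 RPKM (cell 15), so that cell 15 was the only one with both. Kcnk1 (TWIK-1) was detected in 6 cells, from 25.8 RPKM in cell 43 to 119.9 RPKM in cell 1, Kcnk12 in 6 and Kcnk10 in 5. Kcnk13 was found in 2 cells, Kcnk4 and Kcnk6 in 1 each, and Kcnk5, Kcnk7, Kcnk15, Kcnk16 and Kcnk18 were listed at 0.

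HCN channels were detected in 11 of 25 cells, and 3 cells had 2 of the genes. Hcn3 was found in 7 cells (28%, interval 12.1 to 49.4%), at 72.7 RPKM in cell 10, 69.2 RPKM in cell 17, 63.2 RPKM in cell 11, 44.4 RPKM in cell 13, 40.2 RPKM in cell 9, 32.5 RPKM (cell 5) and 15.1 RPKM (cell 29). It was listed at 0 in 15 cells. Hcn2 was listed above 0 in 17 cells but detected in 4, at 54.4 RPKM in cell 31, 34.8 RPKM in cell 4, 22.1 RPKM (cell 12) and 14.8 RPKM (cell 10). Hcn4 was detected in 3 cells, at 52.6 RPKM in cell 31, 33.5 RPKM (cell 4) and 10.3 RPKM (cell 26). The 2 cells highest in Hcn2 were thus the 2 highest in Hcn4, and neither had Hcn3. This was noticed after the values were seen, and 1 of them, cell 31, held the highest value of 11 of the 61 detected members. Pex5l, whose product TRIP8b carries HCN channels to the membrane, was detected in 1 cell at 23.5 RPKM (cell 32), where Hcn2 stood at 5.08 RPKM and both Hcn3 and Hcn4 at 0. The KCNE genes, small modifying subunits, were listed at 0 for Kcne1 to Kcne4, and Kcne1l was detected in cell 29 at 16.6 RPKM. The regulator gene Kcnrg was detected in cell 11 at 17.0 RPKM.

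**Figure D3:**
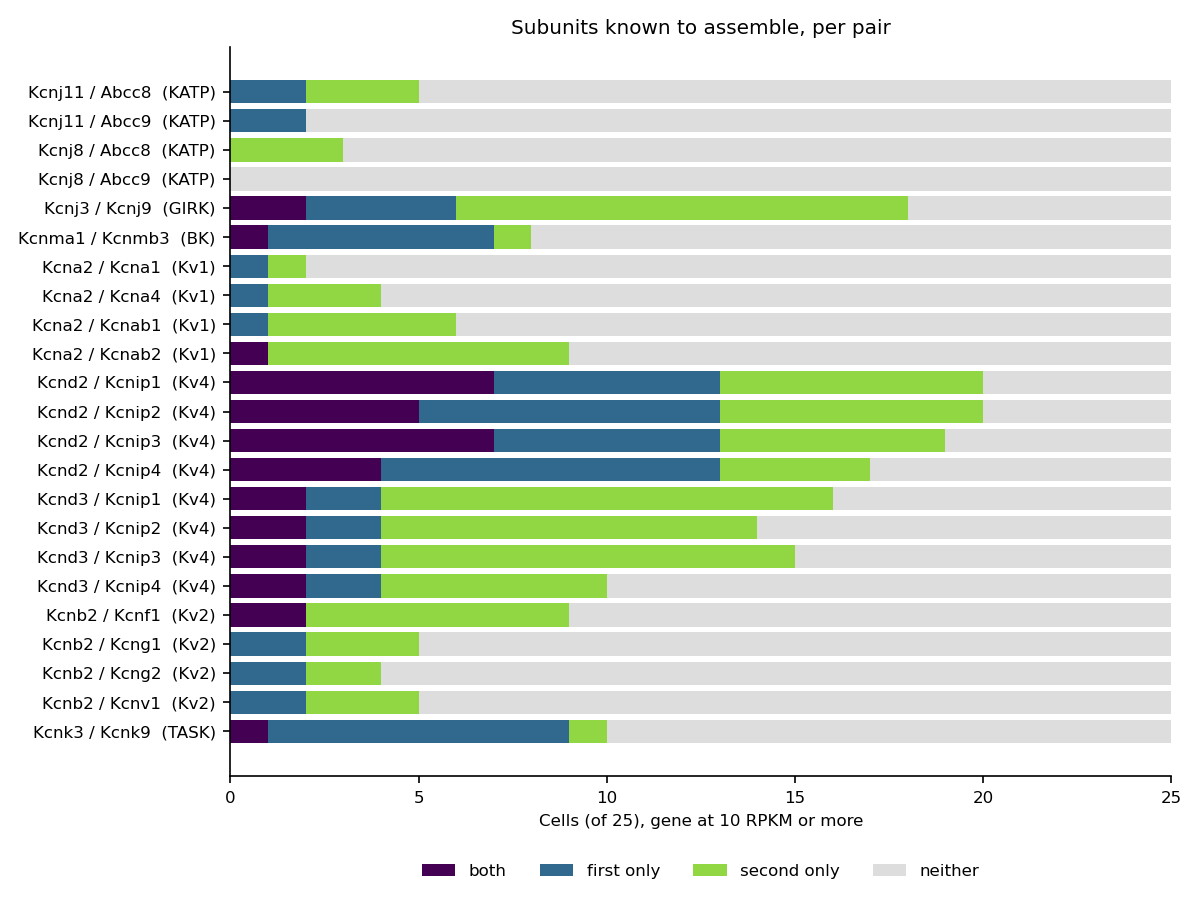
For pairs of genes whose products are known to assemble, bars divide the 25 cells into those with both genes at 10 RPKM or more, the first only, the second only and neither (pairs in which 1 gene was in no cell are drawn for KATP only). Kcnd2 with Kcnip1 or Kcnip3 has the longest segment for both (7 cells), and the KATP pairs have none. Kcnd2 was in 13 cells, Kcnip1 in 14 and Kcnip3 in 13.

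Partner genes outside the rule on names were often more widely detected than the channels. Of 22 such genes, 19 reached the level somewhere, 13 in at least 13 cells and 6 in all 25, beside 13.5% of all symbols in at least 13 cells. Dpp6, an auxiliary subunit of Kv4 channels, was found in 23 cells (median 52.2 RPKM), and its relative Dpp10 in 10. Vapa, which anchors Kv2 channels at junctions with the endoplasmic reticulum, was found in all cells (median 152 RPKM), and Amigo1, a Kv2 auxiliary protein, in 8. Cntnap2 and Lgi1, linked to axonal Kv1 channels, were detected in 17 and 13 cells, although Kcna1 and Kcna2 were detected in 1 each. Of the BK gamma subunits, Lrrc55 was detected in 7 cells, and Lrrc26, Lrrc38 and Lrrc52 were listed at 0.

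The number of members detected per cell ranged from 4 in cell 27 to 19 in cells 4 and 29, with a median of 14. Across the 25 cells it did not follow estimated depth (Pearson r = -0.000425, Spearman rho = -0.0124), and it followed the number of all genes at the level weakly (r = 0.407, rho = 0.379). These correlations describe cells of 1 pool that share the library method, and carry no test. Cell 27 stood low without being poor in genes: it had 4 members among 4831 genes at the level, and its depth was 1846000 reads. Its members were Kcnd2 at 93.4 RPKM, Kcnu1 at 43.6 RPKM, Kcnj11 at 43.6 RPKM and Kcna6 at 23.8 RPKM. Cell 3 had 7 members among 4350 genes.

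Cell 31 had the highest summed level, 974 RPKM over the 102 members, against a range of 234 to 903 RPKM in the others and a median of 511 RPKM. It held the highest value of 11 of the 61 detected members (18.0%), whereas 3.54% of all detected genes had their highest value there. These were Kcnc4, Kcna3, Kcnf1, Kcnab2, Kcnab1, Hcn2, Kcnh6, Kcng1, Hcn4, Kcnh1 and Kcnj12. Cell 31 was among the shallower libraries (1197200 reads) and was the only cell with Malat1, a nuclear noncoding RNA, at 0, and the part of these in the result was not tested. The cell was singled out after its values were seen. Without cells 27 and 31, 60 members were detected in at least 1 cell.

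**Figure D4:**
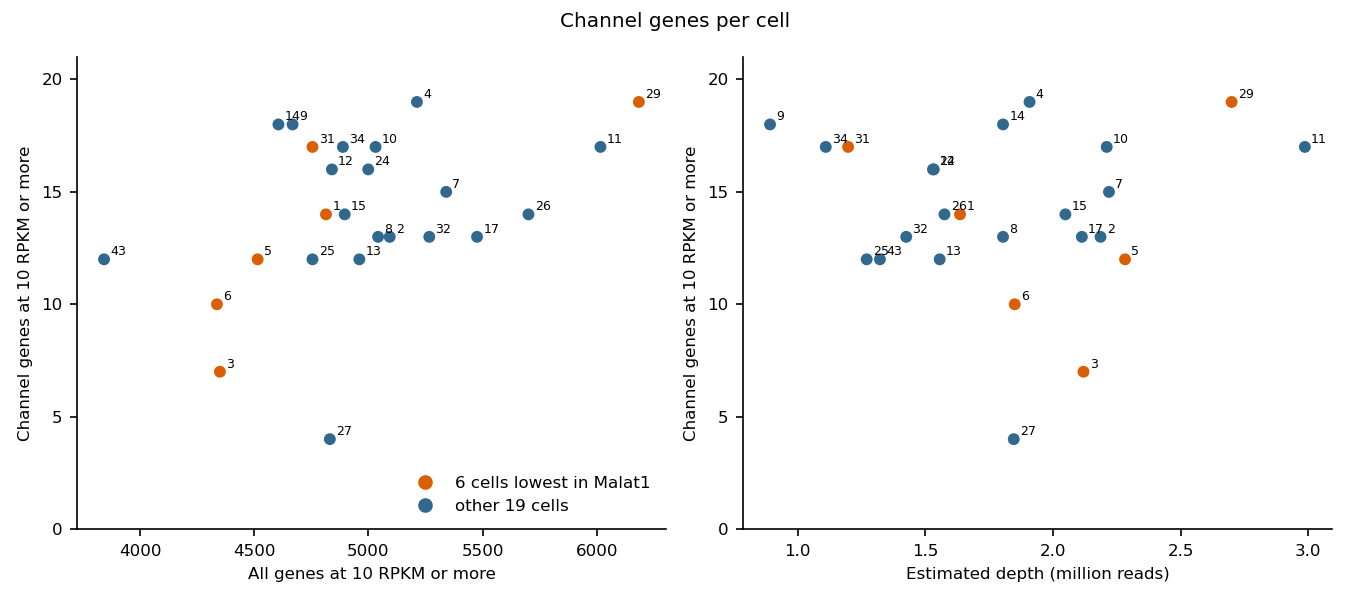
Each point is 1 cell with its label number; the vertical axis is the number of channel genes at 10 RPKM or more, and the horizontal axes are the number of all genes at that level (left) and the estimated depth (right), with the 6 cells lowest in Malat1 in orange. Cell 27 lies lowest at 4 members, cells 4 and 29 highest at 19, and cell 9, the shallowest, has 18.

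Members were then compared between cells with and without 3 genes that mark kinds of arcuate neuron: Th, the enzyme of dopamine synthesis (8 cells against 17), Sst, somatostatin (5 against 20), and Glp1r, the receptor of glucagon-like peptide 1 (10 against 15). The difference is that of mean log2(RPKM + 1), read by a fixed size of 2 or more, over 39 members and 9783 genes that reached 10 RPKM in at least 3 cells. The groups are cells of the same pool, so the differences are descriptions. The 3 sets of cells overlap: cell 1 had Th and Sst, cells 6 and 9 Sst and Glp1r, and cells 11 and 43 Th and Glp1r. In Th cells 2 members were higher (5.13%, beside 2.65% of all genes) and 1 lower (2.56%, beside 1.81%).

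Kcna5 was detected in 8 of 8 Th cells. Its values there were 136 RPKM in cell 3, 77.9 RPKM in cell 11, 63.9 RPKM in cell 43, 33.3 RPKM in cell 1, 30.2 RPKM in cell 8, 20.6 RPKM in cell 12, 17.5 RPKM (cell 26) and 16.4 RPKM (cell 15). Among the other 17 cells it was detected in 6, listed at 0 in 9, and reached 63.7 RPKM. The ranges overlap from above, but no Th cell was below 16.4 RPKM, and the difference was 3.18 on the log2(RPKM + 1) scale. Kcnh2 was detected in 6 of 8 Th cells and 6 of 17 others. None of the Th cells was listed at 0 (lowest 4.64 RPKM, median 24.2 RPKM, highest 82.1 RPKM), while 8 of the others were, and the difference was 2.58. Kcnd2 differed the other way, by -2.37: it was detected in 2 of 8 Th cells (median 0.20 RPKM, highest 18.6 RPKM) and 11 of 17 others (median 22.6 RPKM, highest 110.3 RPKM). Leaving out any 1 cell kept these 3 differences past the size used, but a pseudocount of 10 RPKM in place of 1 ended all 3 calls, with 1.47 for Kcna5, 1.14 for Kcnh2 and -1.12 for Kcnd2. Without the 6 cells lowest in Malat1, Kcna5 stood at 3.58 and Kcnh2 at 3.06, while Kcnd2 fell short at -1.94 and Kcnip2 was the member lower by 2 or more. That left 6 Th cells and 35 members, of which 2 were higher and 1 lower, beside 5.11% and 3.08% of all genes.

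**Figure D5:**
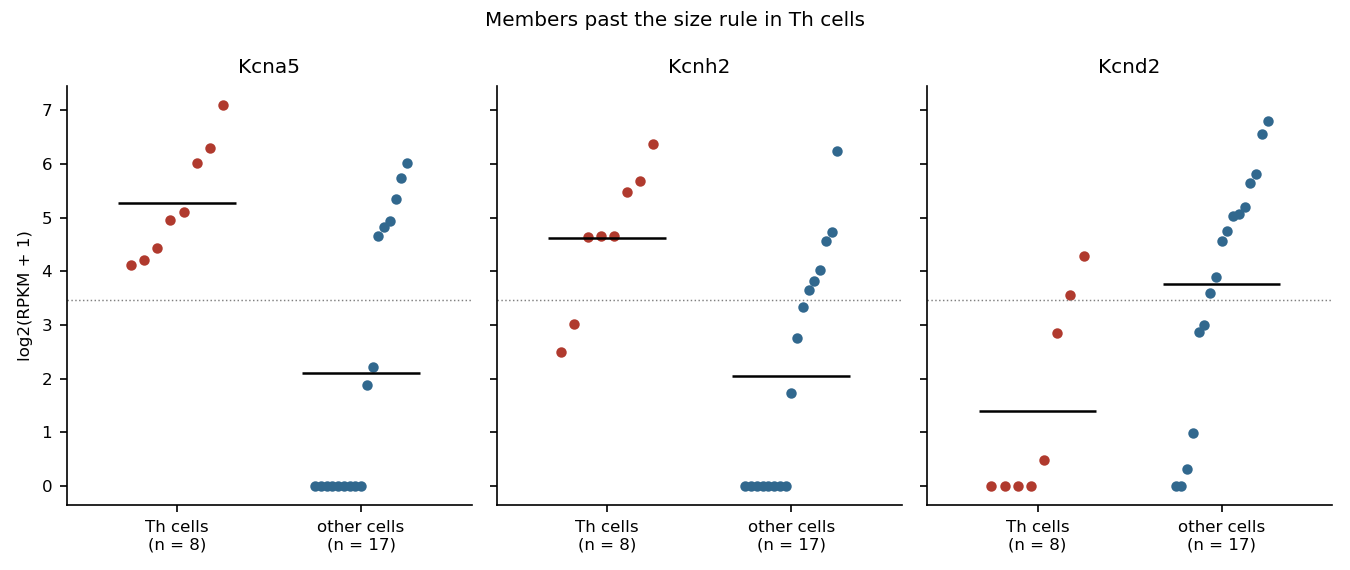
Points give log2(RPKM + 1) of Kcna5, Kcnh2 and Kcnd2 in each of the 8 cells with Th at 10 RPKM or more (red) and the other 17 cells (blue), spread sideways by rank; bars are means and the dotted line is 10 RPKM. All 8 Th cells lie above the line for Kcna5, while 9 other cells lie at 0.

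In Glp1r cells Kcna3 was higher by 2.86, with detection in 8 of 10 cells (median 37.1 RPKM) against 4 of 15 (median 0 RPKM), although the highest value of all, 75.1 RPKM, belonged to cell 31 without Glp1r. It was 1 of 39 members past that size (2.56%, beside 0.971% of all genes), and none was lower by as much (1.11% of all genes). Leaving out the 5 shallowest cells, of which cells 9, 34 and 43 had Glp1r, took Kcna3 from 12 cells to 7. The difference in Glp1r cells was not computed without them. In Sst cells only Kcnf1 passed (2.56%, beside 2.62% of all genes higher), with 2.07. It was detected in 3 of 5 Sst cells and 6 of 20 others, and the difference fell to 1.30 without cell 31 and to 0.81 without the 6 cells lowest in Malat1, which leaves 2 Sst cells (9 and 25). Without cells 27 and 31 the member higher by that size in Sst cells was Kcnk3 in place of Kcnf1 (1 of 35, beside 3.78% of all genes). Just short of the size lay Kcna3 at 1.99, Kcna5 at 1.99 and Kcnip4 at -1.99 in Sst cells, and Kcnf1 at -1.96 in Th cells. Leaving out any of 17 single cells took Kcnf1 in Sst cells below the size. No member was lower by 2 or more there (3.72% of all genes were).

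The spread between cells was described by the coefficient of variation of RPKM for the 39 members detected in at least 3 cells. The highest belonged to members on in few cells: Kcng1 (3.40), Kcnu1 (3.00), Abcc8 (2.92), Hcn4 (2.88), Kcnv1 (2.82), Kcnh7 (2.77), Kcna4 (2.66) and Kcnd1 (2.56). Against the 500 genes nearest in mean level, Kcng1 lay at percentile 98.8 and Kcnu1 at 93.8, both picked for their high coefficient of variation. Towards the low end lay Kcnma1 at percentile 7.8, Kcnn3 at 8.6 and Kcnc2 at 9.4. The median member lay at percentile 58.8, where 50 would be the middle of those genes.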

How the data were processed

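Polyadenylated RNA of 25 single GFP-positive cells went through Smart-Seq2 and then Nextera XT, per the labels' protocols. The authors deposited 1 table named as gene counts whose values are RPKM by their form: they are decimals, and multiplied by exon length they add up to cell totals that vary by 1.65% (coefficient of variation). The builds GRCm38 and mm10 and the tools featureCounts 1.4.6, TopHat2 2.0.14, SAMtools 0.1.19 and Picard 2.5.0 are named, without roles, per the submitters' processing notes; the annotation is not given in the sources used here. Of 33082 rows, 26 with date numbers for names were left out, and a repeated symbol was represented by its row of greatest sum.

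GENCODE M21 gave gene positions and exon lengths, which may differ from the authors' lengths, so read numbers are estimates. The product of RPKM and length was 1.38 to 1.47 times the total that matching lengths would give. Depth was estimated from steps of 1, 2 and 3 reads among low values, a method tested on simulated data. Detection was 10 RPKM, and a long gene needs more reads to reach it. Analysis used Python 3.11.15 with pandas 2.3.3 and scipy 1.17.1.

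The members, gene lists, families and partner pairs were chosen with earlier results of these data known. The genes named were members in at least 8 cells, all HCN, KATP and GIRK genes, both genes of each partner pair, members past the size in Th, Sst or Glp1r cells, the 8 with the highest coefficient of variation and the member with the highest value; other members named, such as those in 1 cell, were named to account for every member. Some members are counted in the totals but not reported or drawn singly here. Alternatives were other detection levels and pseudocounts, no filter on low values, 10 estimated reads, equal cell sums, summed repeated rows, and leaving out cells low in Malat1 or shallow; leaving out cells 27 and 31, or each cell in turn, was chosen after seeing the data.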

Additional observations from a re-analysis of the deposited data

How the results depend on the processing

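At a level of 1 RPKM, 20 members were in at least 13 cells, the median cell had 22, the share of members less that of all symbols in most cells turned from -5.68 to 0.451 percentage points, and 4 GIRK, 4 other Kir, 2 Kcnmb and 2 antisense members were detected. At 5 RPKM, 14 were in most cells, with 4 GIRK, 2 Kcnmb and 2 antisense members. At 20 RPKM, 2 were in most cells, the median cell had 9, 7 partner pairs shared a cell, and 1 Kv7, 1 other Kir, 0 KCNE or Kcnrg and 0 antisense members were left. With 10 estimated reads, 19 were in most cells, the median cell had 22, and 4 GIRK, 2 Kcnmb and 2 antisense members were detected. The difference from all symbols was then 0.445 percentage points with symbols lacking a length counted as not detected. All 102 members but 73.6% of symbols had a length, and over symbols with a length it was -6.07, a restriction chosen after the first value was seen. Without the 6 cells low in Malat1, 1 other Kir and 1 KCNE or Kcnrg member remained, and of 35 members 4 were higher and 4 lower in Sst cells, of which only 2 remained, beside 8.15% and 10.1% of all genes. Without the 5 shallowest cells 1 other Kir member was detected. With a pseudocount of 0.1 RPKM, 6 of 39 members were lower in Th cells (8.83% of all genes), 5 higher and 2 lower in Sst cells (8.3% and 14.4%) and 5 higher in Glp1r cells (7.1%). With 10 RPKM the counts were 0 higher and 0 lower in Th cells, 0 higher in Sst cells and 0 higher in Glp1r cells, since a larger pseudocount shrinks differences among low values; Kcnf1 in Sst cells was then 1.11 and Kcna3 in Glp1r cells 1.22. Equal cell sums gave 1 of 41 members lower in Sst cells (3.92% of all genes), and leaving out cells 27 and 31 gave 2 of 35 (5.35%). Apart from the pseudocounts, the cause of these shifts was not tested. Of 239 alternative values for the counts and shares, 200 stayed within the limits used, which were 1.5 times the count or the interval of the share. Some alternatives, such as summed repeated rows, changed no count of members, so this tally is no measure of robustness. Among values of single genes and pairs, 265 stayed, 38 moved and 7 differences fell below the size of 2. No paired analysis was possible because there is 1 group of cells from 1 pool. Genes of low level are limited by depth, which was 891400 reads in the shallowest cell.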
